A study of Sebastes schlegelii with 6 samples.

Results

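Cell division genes were examined in the liver of Korean rockfish (Sebastes schlegelii), a marine fish, after 72 days of feeding or of starvation. Kinesins, tubulins and DNA replication factors were left out by symbol or pathway. Kinesins under other symbols, such as CENPE, Cenpe and unc-104, therefore stayed among the members. The members were the genes of the deposited annotation that carried the Gene Ontology entry cell division, less symbols starting kif, tub, mid1ip1, mcm, cdc6, cdt1, cdc45, gmnn or csnk and less genes of the KEGG pathway DNA replication. The entry was carried by 336 genes, 11 were left out, and 325 of the 19303 genes in the count table remained. Read counts in 269 of the 325 were high enough to be tested, and the other 56 were not tested. Each group held 3 libraries of whole liver, fed replicates 1 to 3 and starved replicates 1 to 3, with no other treatment, strain, sex or age given in the labels. Replicate numbers only name libraries and pair nothing. Nothing in the labels ties each library to a fish of its own, so the p-values rest on library-to-library spread, which may be technical.

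Cell division copies and separates the genome in ordered steps. Cyclins switch on cyclin-dependent kinases, condensin compacts the chromosomes, kinetochores built on centromeres attach them to the spindle, and the spindle checkpoint holds the anaphase-promoting complex, a ubiquitin ligase, until all are attached. Its activator CDC20 then starts the destruction of securin and cyclin B, cohesin is cut, and a midzone of bundled microtubules and an actomyosin ring divide the cell. Most liver cells of an adult vertebrate are out of the cycle, and transcripts of the mitotic machinery come mainly from the few cells that are dividing.

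Total counts lay between 11623356 (fed replicate 1) and 14716282 (starved replicate 3). Fed replicate 1 stood apart: across genes, Pearson's r of its log2 CPM with fed replicates 2 and 3 was 0.900 and 0.889, while those libraries correlated with each other at 0.959. Its share of spliced reads was 41.7%, against 50.7% to 53.3% in the other libraries. The main results are therefore also given without it.

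In starved liver, 35 of 269 tested members were lower, 7 were higher and 227 were not called. The 35 are 13.0% of the tested members, where 2.98% of all 13338 tested genes were called lower. The 7 are 2.60%, close to the 2.18% of all tested genes that were called higher, and 5.16% of all tested genes were called in either direction. A call means an adjusted p under 0.05 in edgeR's quasi-likelihood test with Benjamini-Hochberg adjustment over all tested genes, and CPM is the read count scaled to a common depth with TMM factors. Lower members included ccnb1, cdk1, Cdc20, ttk, incenp, tpx2 and PRC1, which act in mitotic entry, chromosome attachment, exit and cleavage. Of the 35, 33 fell by more than 2 on the log2 scale. In whole tissue, fewer cells of a type and less RNA per cell cannot be told apart.

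Most members did not pass the test, and their centre hardly moved. The median log2 fold change, starved minus fed, was -0.15 over the 269 tested members and -0.03 over all tested genes, and 154 of the 269 were below 0. The 3 fed and 3 starved values did not overlap, lower in starved, for 71 of the 269 members, beside 2061 (15.5%) of all 13338 tested genes. The reverse held for 39 of the 269, beside 2083 (15.6%) of all, so the 39 are near the share of all genes. Lower calls made up 9 of 27 tested members in the centromere group, 5 of 22 in condensin and cohesin, 3 of 15 in cytokinesis, 7 of 38 in cyclins and kinases, 5 of 32 in checkpoint, 5 of 64 in spindle and centrosome and 1 of 71 among the other members. Of all tested genes 2.98% were called lower, and the differences between the shares of the groups were not tested.

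**Figure D1:**
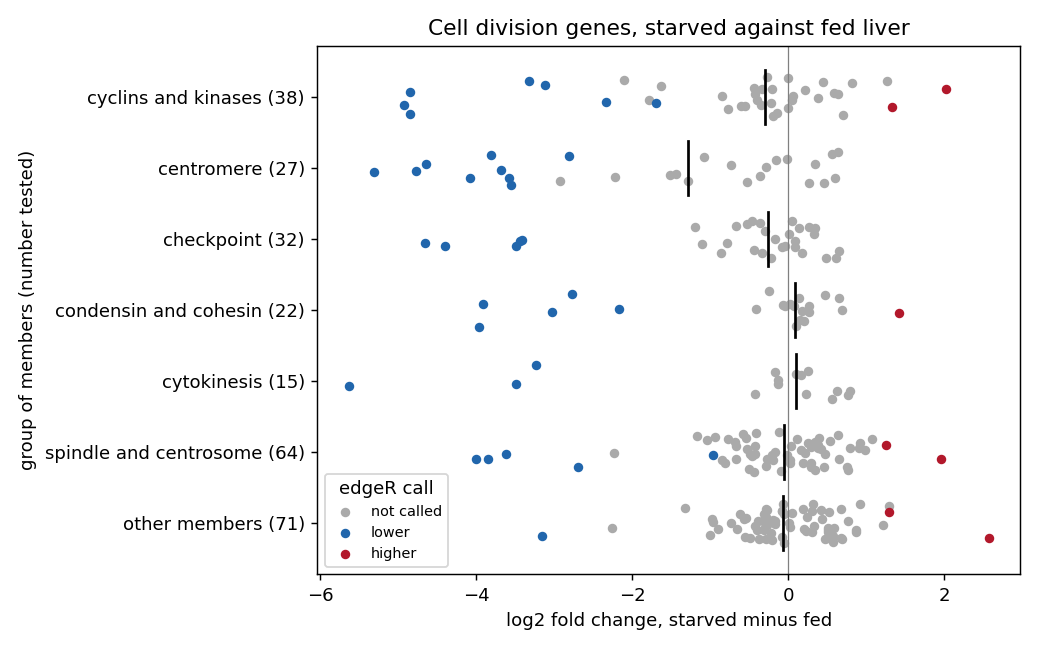
Each point is 1 tested member, placed by its log2 fold change (starved minus fed, horizontal axis) in its group (vertical axis, number tested in brackets), with the group median as a black bar and calls at an edgeR adjusted p under 0.05 in blue (lower) and red (higher). The centromere group has the lowest median, -1.28, and the lower calls form a tail that reaches -5.62.

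Without fed replicate 1 the counts were 40 lower (14.7% of members) and 14 higher (5.15%), beside 6.5% and 5.81% of all genes then tested. The share of higher members was thus slightly below that of all genes, and 34 of the 35 lower calls were still made. Leaving out any other library lowered the counts among members and among all genes, and the cause was not tested. The lower count was 13 (4.78%) without fed replicate 2 and 32 (11.5%) without fed replicate 3, beside 1.15% and 2.25% of all genes. It was 3, 8 and 7 without starved replicates 1, 2 and 3, which is 1.07%, 2.88% and 2.50% of the members beside 0.356%, 0.585% and 0.588% of all genes. The higher count was 1 (0.368%) without fed replicate 2 and 5 (1.79%) without fed replicate 3, beside 0.54% and 1.14% of all genes. It was 0, 1 and 0 without starved replicates 1, 2 and 3, beside 0.385%, 0.483% and 0.363%. Calls of Cdc20, tpx2 and a gene named PRC1 held in all 16 alternatives run.

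Among cyclins and kinases, the pair that drives entry into mitosis was near 0 in starved liver. ccnb1, cyclin B1, measured 6.73, 11.4 and 3.77 CPM in the fed libraries and 0.142, 0.395 and 0.147 CPM in the starved libraries. cdk1, its kinase partner, measured 22.2, 8.62 and 4.16 CPM fed and 0.354, 0.593 and 0.220 CPM starved. For both genes every fed library was above every starved one, by a wide margin. ccnb1 fell by 4.93 ± 0.61 in log2 units (SE, n = 3 per group; edgeR adjusted p = 0.00643), and cdk1 fell by 4.84 ± 0.73 (edgeR adjusted p = 0.0124).

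Aurora kinase A matures centrosomes and builds the spindle. Its gene aurka-b measured 25.1, 8.12 and 2.39 CPM fed and 0.283, 0.329 and 0.587 CPM starved, the widest spread among fed libraries of the kinases named here. It fell by 4.85 ± 0.89 in log2 units (edgeR adjusted p = 0.0230). CCNB3, another B-type cyclin, was 9.98-fold lower (edgeR adjusted p = 0.0150), ccnf, cyclin F, the substrate receptor of a ubiquitin ligase, 8.69-fold lower (edgeR adjusted p = 0.0248), and mastl, the Greatwall kinase that keeps mitotic phosphatase activity down, 5.06-fold lower (edgeR adjusted p = 0.0387).

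The D-type cyclins act earlier, in the response to growth signals. ccnd1, cyclin D1, measured 20.6, 33.7 and 30.6 CPM fed and 11.2, 7.71 and 7.42 CPM starved, so it stayed well expressed in both groups. It fell by 1.69 ± 0.29 in log2 units (edgeR adjusted p = 0.0193). A gene named CCND2 had 8.12, 40.9 and 34.5 CPM fed and 6.80, 8.37 and 4.19 CPM starved, with an adjusted p of 0.0726. Fed replicate 1 sat within the starved range of that gene, and without that library the edgeR adjusted p was 0.00431. Another tested gene named CCND2 had a log2 fold change of -0.27 (edgeR adjusted p = 0.739), and a gene written ccnd2 was too low to be tested.

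The G1 and S phase partners did not pass: ccne1 had a log2 fold change of -0.35, cdk2 of -0.40 and cdk4 of -0.55 (edgeR adjusted p = 0.695, 0.537 and 0.370). Of 8 tested cyclin-dependent kinases, cdk1 alone was called, and 0 of 6 tested NEK kinases were, beside 5.16% of all tested genes. Lower calls in the group of cyclins and kinases numbered 0, 1 and 1 without starved replicates 1, 2 and 3 and 2 without fed replicate 2. The adjusted p over the alternatives reached 0.0528 for ccnb1, 0.0742 for cdk1, 0.113 for aurka-b and 0.108 for ccnd1.

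Both unconventional G-type cyclins went the other way. CCNG1, cyclin G1, measured 431, 297 and 460 CPM fed and 1364, 1431 and 2038 CPM starved. It rose by 2.02 ± 0.35 in log2 units (edgeR adjusted p = 0.0198), and all starved libraries were above all fed ones. Ccng2, cyclin G2, known in mammals for high levels in cells that have left the cycle, measured 10.3, 11.3 and 13.9 CPM fed and 19.8, 33.2 and 36.2 CPM starved and rose by 1.33 ± 0.29 (edgeR adjusted p = 0.0400). Per length, CCNG1 was far above the mitotic cyclins in both groups, at a mean of 432 FPKM fed, where ccnb1 had 6.48 FPKM. CCNG1 lost its call when fed replicate 2 or any 1 starved library was left out (edgeR adjusted p up to 0.0957), and Ccng2 also without fed replicate 3 (up to 0.175).

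**Figure D2:**
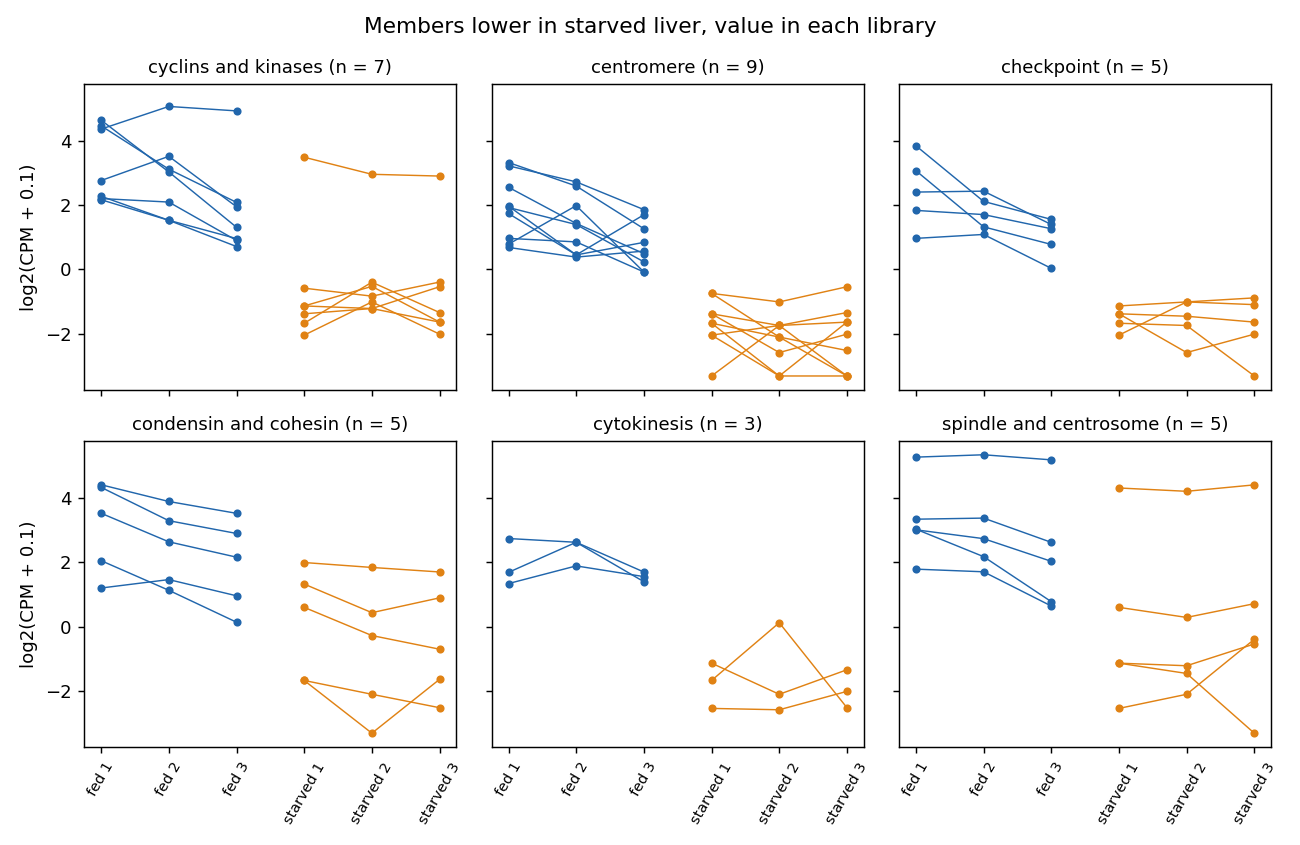
Lines join the values of 1 member in the 3 fed (blue) and 3 starved (orange) libraries, as log2(CPM + 0.1) on the vertical axis, in 6 groups, for 34 of the 35 lower members (rbbp8, of the other members, is not drawn). Replicates have no order, and every line drawn is higher in all fed than in all starved libraries.

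In the centromere group, 9 of 27 tested members fell and 0 rose, beside 2.98% and 2.18% of all tested genes. For 16 of the 27, all starved values were below all fed ones, beside 15.5% of all tested genes. incenp, the scaffold that carries Aurora B kinase to the inner centromere, measured 9.28, 6.53 and 3.54 CPM fed and 0.496, 0.395 and 0.587 CPM starved. It fell by 3.68 ± 0.48 in log2 units (edgeR adjusted p = 0.00667). birc5.2, a survivin of the same complex, was 16.9-fold lower (edgeR adjusted p = 0.0273), and 2 other genes of that name had 3 or fewer counts in each group and were not tested.

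Of 3 tested genes of the NDC80 complex in the outer kinetochore, 1 was called. ndc80, which binds the microtubule, measured 3.71, 2.54 and 1.08 CPM fed and 0.283, 0.0659 and 0.147 CPM starved, 13.99-fold lower (edgeR adjusted p = 0.0234). Its partner nuf2 was at 4.06, 0.697 and 0.924 CPM fed and 0.0708, 0.329 and 0.294 CPM starved, with an adjusted p of 0.0985. The groups do not overlap for either gene, but only fed replicate 1 was high for nuf2. Spc25, of the same complex, stood at 0.57 in log2 fold change (edgeR adjusted p = 0.638), and Dsn1, ska1 and ska2, also of the kinetochore, at -1.44, -0.53 and -0.37, none called (edgeR adjusted p = 0.176, 0.544 and 0.751). CENPT, which joins NDC80 to centromeric chromatin, was 6.99-fold lower (edgeR adjusted p = 0.0230).

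KNTC1 and zwilch belong to the complex that brings dynein and checkpoint proteins to unattached kinetochores. KNTC1 was 11.99-fold lower (edgeR adjusted p = 0.0238). zwilch had 75 counts over the fed and 2 over the starved libraries, a ratio of 43.0 after scaling (95% exact interval 11.5 to 362, counting error only; edgeR adjusted p = 0.0219). The library reads carry no molecular identifiers, so the interval leaves out amplification error.

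CENPE, a kinesin motor that carries chromosomes to the spindle equator, is annotated on 2 genes with neighbouring identifiers, written CENPE and Cenpe. CENPE measured 9.97, 5.96 and 2.31 CPM fed and 0.496, 0.132 and 0.0734 CPM starved (24.9-fold lower; edgeR adjusted p = 0.0170). Cenpe had 86 counts fed and 3 starved, a ratio of 32.9 after scaling (95% exact interval 10.9 to 163; edgeR adjusted p = 0.0387). Both thus moved the same way, and whether they are copies or pieces of 1 gene was not tested. ercc6l, a translocase of the threads that link separating chromatids, was 11.7-fold lower (edgeR adjusted p = 0.0400).

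The highest centromere members per length, Bod1 and Znf207, stood at 0.46 and -0.15 in log2 fold change and were not called (edgeR adjusted p = 0.468 and 0.791). Lower calls in the centromere group numbered 0, 1 and 1 without starved replicates 1, 2 and 3 and 1 without fed replicate 2. Over the alternatives the adjusted p of incenp reached 0.0556 and that of CENPE 0.0898.

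The checkpoint group holds the spindle checkpoint, the anaphase-promoting complex and other genes placed there by symbol prefix, such as klhl13. Among its 32 tested members 5 (15.6%) fell, beside 2.98% of all tested genes. Cdc20 measured 5.22, 5.33 and 2.54 CPM fed and 0.283, 0.0659 and 0.147 CPM starved. It fell by 4.66 ± 0.60 in log2 units (edgeR adjusted p = 0.00666, at most 0.0458 over the alternatives). ube2c, the enzyme that hands ubiquitin to the complex, measured 14.4, 4.25 and 2.85 CPM fed and 0.142, 0.395 and 0.441 CPM starved, 21.1-fold lower (edgeR adjusted p = 0.0195). Fed replicate 1 gave the highest value of ube2c, yet the lowest fed library was still above every starved one.

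Pttg1, securin, which holds separase in check, was 10.6-fold lower (edgeR adjusted p = 0.0328). ttk, the kinase that starts checkpoint signalling at the kinetochore, measured 3.48, 3.17 and 2.31 CPM fed and 0.283, 0.264 and 0.220 CPM starved, 11.3-fold lower (edgeR adjusted p = 0.00667). Its values were tight within both groups. Bub1b, the checkpoint protein BUBR1, was 10.9-fold lower (edgeR adjusted p = 0.0429), whereas bub3 and MAD1L1 stood at -1.11 and 0.18 in log2 fold change and were not called (edgeR adjusted p = 0.264 and 0.773).

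The 8 tested subunits of the anaphase-promoting complex with symbols starting anapc lay between -0.86 and 0.08 on the log2 scale. Of these, 0 were called (smallest edgeR adjusted p 0.182), beside 5.16% of all tested genes. Any subunits under other symbols were not counted here. Anapc13 and ANAPC16, the highest of the group per length, had fed means of 53.7 and 48.9 FPKM. The 3 genes named Fzr1, the activator used after mitosis and in cells at rest, were not called either. Lower calls in the checkpoint group numbered 1, 2 and 2 without starved replicates 1, 2 and 3 and 3 without fed replicate 2. The adjusted p of ttk reached 0.0523, that of ube2c 0.0960 and that of Bub1b 0.157 over the alternatives.

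Condensin and cohesin are ring complexes built on SMC proteins. Beside 2.98% lower and 2.18% higher among all tested genes, 5 of 7 tested condensin genes fell. Of 12 tested genes of cohesin and its regulators, 0 fell and 1 rose. These complexes were drawn up after the values were seen, so the counts are a description and the difference between them was not tested. smc4, a core subunit of condensin, measured 21.3, 14.8 and 11.5 CPM fed and 3.90, 3.49 and 3.16 CPM starved and fell by 2.17 ± 0.31 in log2 units (edgeR adjusted p = 0.0106). SMC2, its partner, was 8.16-fold lower (edgeR adjusted p = 0.0195).

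ncapd2, of condensin I, measured 20.2, 9.76 and 7.39 CPM fed and 2.41, 1.25 and 1.76 CPM starved, 6.83-fold lower (edgeR adjusted p = 0.0173). The condensin II subunits ncapg2 and NCAPD3 were 15.1-fold and 15.6-fold lower (edgeR adjusted p = 0.00980 and 0.0398). ncapg and ncaph, named for the remaining condensin I subunits, were not called: ncapg measured 48.5, 33.7 and 13.6 CPM fed and 39.0, 29.6 and 34.1 CPM starved (edgeR adjusted p = 0.910), and ncaph had a log2 fold change of -0.42 (edgeR adjusted p = 0.398). Per length these 2 genes were also at other levels than ncapd2 in starved liver, with means of 11.4 and 4.62 FPKM beside 0.445 FPKM.

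Of the cohesin set, cdca5-a and sgo1, regulators of sister chromatid cohesion, were too low to be tested. cdca5-a had 17, 17 and 3 counts fed and 1, 0 and 0 starved, and sgo1 had 4, 16 and 13 counts fed and 0, 4 and 0 starved, so all fed values of both were above all starved ones after scaling. The core subunits had higher counts. RAD21, the subunit that separase cuts, measured 56.0, 48.3 and 45.4 CPM fed and 51.8, 48.6 and 44.6 CPM starved (edgeR adjusted p = 0.926), and smc1a had a log2 fold change of 0.20 (edgeR adjusted p = 0.647). mau2, part of the cohesin loader, measured 11, 14.4 and 13.9 CPM fed and 32.3, 32.8 and 40.7 CPM starved and rose by 1.42 ± 0.24 in log2 units (edgeR adjusted p = 0.0169). Lower calls in the group of condensin and cohesin numbered 0 without any 1 of starved replicates 1, 2 and 3 and 3 without fed replicate 2. The adjusted p of smc4 reached 0.0686 and that of mau2 0.0931 over the alternatives.

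**Figure D3:**
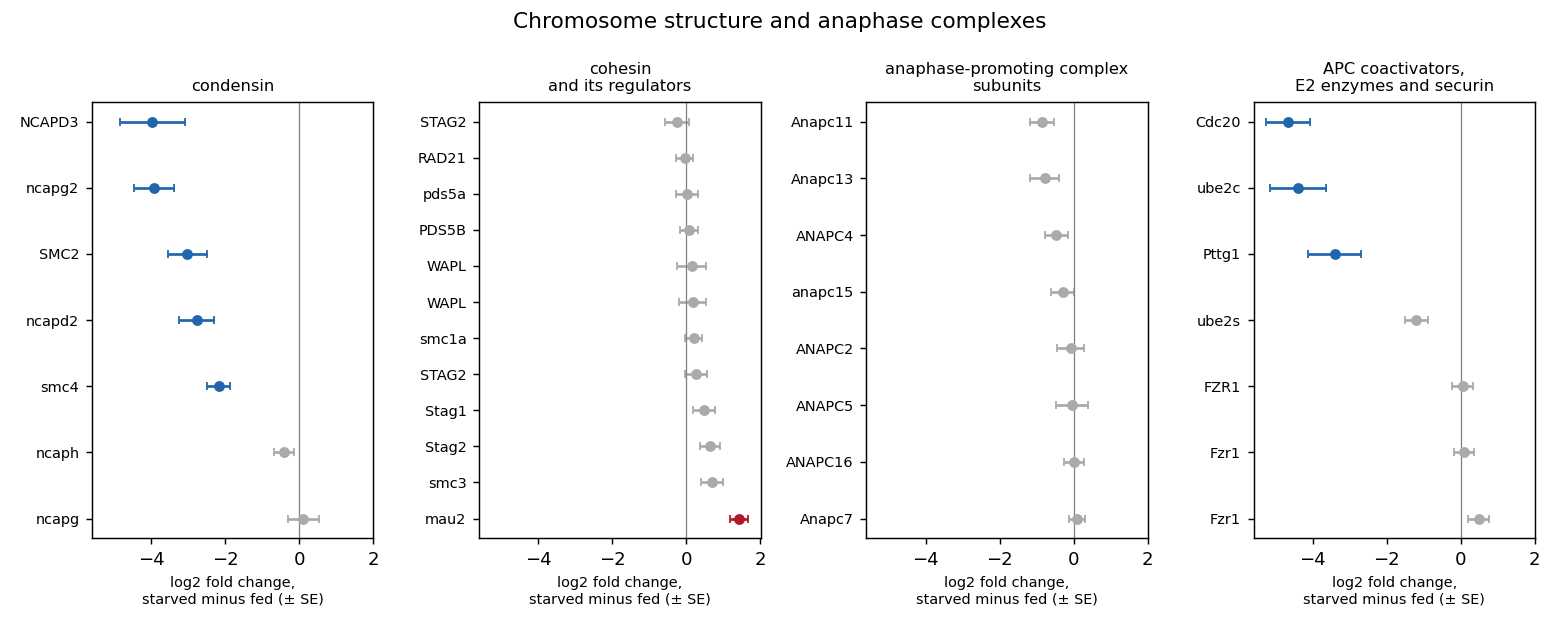
Log2 fold change (starved minus fed, horizontal axis) with its standard error for each tested gene of 4 sets. They are condensin, cohesin and its regulators, the anaphase-promoting complex (APC) subunits with symbols starting anapc, and the APC activators, enzymes and securin. Blue and red mark edgeR calls, lower and higher, and grey marks genes not called: 5 of 7 condensin genes are blue, 0 of these 8 APC subunits are. Of all tested genes 2.98% were called lower.

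In cytokinesis, 3 of 15 tested members fell, beside 2.98% of all tested genes. All 3 were proteins of the midzone or the cleavage ring. PRC1, which bundles the midzone microtubules, is annotated on 2 genes. The gene S.schlegelii_GLEAN_10019589 measured 6.61, 6.09 and 2.54 CPM fed and 0.0708, 0.0659 and 0.147 CPM starved. It fell by 5.62 ± 0.62 on the log2 scale, the largest change of any tested member (edgeR adjusted p = 0.00467, at most 0.0459 over the alternatives). The other PRC1 gene measured 2.44, 3.61 and 2.85 CPM fed and 0.354, 0.132 and 0.294 CPM starved, 11.2-fold lower (edgeR adjusted p = 0.0109).

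anln, anillin, the scaffold of the cleavage ring, measured 3.13, 6.09 and 3.16 CPM fed and 0.212, 0.988 and 0.0734 CPM starved (9.40-fold lower; edgeR adjusted p = 0.0466). It had the highest adjusted p of the 35. The membrane machinery that seals the bridge between daughter cells, and also works in cells that do not divide, was not called. TSG101 and RAB11FIP3 stood at 0.16 and -0.18 in log2 fold change (edgeR adjusted p = 0.795 and 0.801). Of 4 tested ESCRT genes and partners 0 passed, beside 5.16% of all tested genes. Lower calls in the cytokinesis group numbered 1 without starved replicate 1 and 1 without starved replicate 3, and the adjusted p of anln reached 0.181 and that of the other PRC1 gene 0.0577.

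In the group of spindle and centrosome, 5 of 64 tested members (7.81%) fell, beside 2.98% of all tested genes. The 2 that rose (3.125%) are near the 2.18% of all tested genes. tpx2, which activates Aurora A and nucleates spindle microtubules, measured 8.0, 6.59 and 4.0 CPM fed and 0.354, 0.329 and 0.587 CPM starved. It fell by 3.84 ± 0.45 in log2 units (edgeR adjusted p = 0.00545, at most 0.0494 over the alternatives). ASPM, a protein of spindle poles, measured 10.1, 10.3 and 6.08 CPM fed and 1.42, 1.12 and 1.54 CPM starved, 6.47-fold lower (edgeR adjusted p = 0.00673). Both were tight in the starved group.

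fam83d and Spag5, which serve chromosome alignment on the spindle, were 16-fold and 12.2-fold lower (edgeR adjusted p = 0.0354 and 0.0365). pafah1b1-1, the dynein regulator LIS1, measured 38.9, 40.9 and 36.6 CPM fed and 19.9, 18.5 and 21.3 CPM starved. It had the smallest change of the lower members, a fall by 0.96 ± 0.21 in log2 units (edgeR adjusted p = 0.0400). tacc3, which strengthens spindle fibres, had a log2 fold change of -2.23 and was not called (edgeR adjusted p = 0.0985). Of 7 tested augmin subunits, which branch spindle microtubules, 0 were called, beside 5.16% of all tested genes.

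FIGN, fidgetin, which severs microtubules, measured 1.86, 2.92 and 1.92 CPM fed and 8.0, 8.90 and 9.40 CPM starved and rose by 1.96 ± 0.31 in log2 units (edgeR adjusted p = 0.0142). CLASP1, which stabilises microtubule ends, measured 10.2, 12.1 and 7.70 CPM fed and 23.9, 23.0 and 24.7 CPM starved and rose by 1.25 ± 0.25 (edgeR adjusted p = 0.0284). Both are separated between the groups in every library. The other tested gene with the CLASP1 symbol was not called, and the other genes named fign were too low to be tested. The G protein subunit genes Gnai1 and GNAI2, the highest of the group per length, were not called (edgeR adjusted p = 0.979 and 0.0574).

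Lower calls in the spindle and centrosome group numbered 1, 2 and 2 without starved replicates 1, 2 and 3 and 2 without fed replicate 2. Over the alternatives the adjusted p reached 0.0549 for ASPM, 0.204 for pafah1b1-1, 0.0771 for FIGN and 0.137 for CLASP1.

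Of the 71 other tested members 1 (1.41%) fell and 2 (2.82%) rose, near the 2.98% and 2.18% of all tested genes. rbbp8, the CtIP protein that trims broken DNA ends, was 8.91-fold lower (edgeR adjusted p = 0.0429) and was the lower call that ended without fed replicate 1. ANKLE2, a nuclear envelope protein known in human cells for rebuilding the envelope after mitosis, measured 11.5, 11 and 11.2 CPM fed and 27.0, 27.7 and 28 CPM starved and rose by 1.30 ± 0.21 in log2 units (edgeR adjusted p = 0.0149). pkn2, a protein kinase, measured 0.580, 0.634 and 0.462 CPM fed and 3.90, 2.31 and 3.89 CPM starved and rose by 2.57 ± 0.43 (edgeR adjusted p = 0.0170). Its 2 other tested namesakes were not called.

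The most abundant other members are not specific to division. rps3, a ribosomal protein, had 944, 548 and 459 CPM fed and 1105, 1549 and 1873 CPM starved (edgeR adjusted p = 0.121). gsp-2, named for a phosphatase subunit, had 98.6, 92.2 and 53.6 CPM fed and 42.6, 38.9 and 43.8 CPM starved (edgeR adjusted p = 0.101). The groups do not overlap for either gene, and neither passed. Over the alternatives the adjusted p reached 0.164 for rbbp8 and 0.0867 for ANKLE2 and pkn2. ANKLE2 lost its call when fed replicate 2 or any 1 starved library was left out, and pkn2 when fed replicate 2 or 1 of starved replicates 1 and 3 was.

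The lower members were scarce transcripts. When the tested members were ordered by mean FPKM over all libraries and cut into 3 parts, 27 of the 90 lowest, 6 of the 89 in the middle and 2 of the 90 highest were lower. That mean includes the starved values, so the fall itself moves members towards the lowest part. The same parts were not counted for all tested genes, of which 2.98% were lower. The median of the 35 was 1.79 FPKM in fed liver and 0.166 FPKM in starved liver. Over all libraries of both groups together, the median was 4.59 FPKM for the tested members and 6.10 FPKM for all tested genes. Of the members in the KEGG pathway Cell cycle 11 of 43 (25.6%) were lower, and of the rest 24 of 226 (10.6%) were, beside 2.98% of all tested genes. These shares are descriptions.

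The fed libraries had an order among themselves in CPM, that is, after TMM scaling. That scaling weighs on the order: TOP2A, a gene outside the members, had 280 and 291 counts in fed replicates 1 and 2, but 32.5 and 18.5 CPM. Of the 35 lower members, 25 were highest in fed replicate 1, 10 in fed replicate 2 and 0 in fed replicate 3, and 29 were lowest in fed replicate 3. Among the other 362 genes called lower, 53.0% were highest in fed replicate 1. That library was also highest for 42.3% of the 227 tested members not called and 41.7% of all tested genes. Fed replicate 3 was lowest for 152 of the 362, 78 of the 227 and 3894 of all 13338 tested genes. The summed CPM of the 35 was 306, 235 and 158 in fed replicates 1, 2 and 3 and 47.8, 40.3 and 43.0 in starved replicates 1, 2 and 3, so the starved libraries lay much closer together.

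Of the 56 untested members, 39 (69.6%) had more counts over the fed than over the starved libraries, beside 42.5% of all 5965 untested genes. All fed values were above all starved values in 13 (23.2%) and the reverse held in 1 (1.79%), beside 5.06% and 4.76% of all untested genes. Among the 13 were cdca8, borealin of the incenp complex, at 4.75, 1.71 and 0.693 CPM fed and 0, 0.264 and 0.294 CPM starved, and a ccnb2 gene, cyclin B2, at 1.62, 3.17 and 0.693 CPM fed and 0.142, 0.132 and 0.0734 CPM starved. With no filter on low counts, 3 of the 56 (5.36%) were called lower, beside 0.235% of all untested genes, namely that ccnb2 gene, Pmf1 and cdca5-a. The 56 had a median of 15.5 counts over the 6 libraries, so little could be detected at this depth.

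Genes of the wider cell cycle outside the members were looked at through a list of 64 symbols of regulators and proliferation markers, of which 53 matched 63 genes and 41 of these were tested. In starved liver 8 of the 41 were lower and 2 were higher, beside 2.98% and 2.18% of all tested genes. The lower ones were CKAP2, TOP2A, MKI67, HMMR, Foxm1, melk, CDKN3 and Dlgap5. MKI67, the proliferation marker Ki-67, measured 21.1, 15.3 and 9.62 CPM fed and 1.63, 2.44 and 1.62 CPM starved, 8.04-fold lower (edgeR adjusted p = 0.00648).

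TOP2A, the topoisomerase that untangles sister chromatids, was 15.2-fold lower (edgeR adjusted p = 0.00643) and CKAP2, a spindle protein, 48.0-fold lower (edgeR adjusted p = 0.00643). Foxm1, the transcription factor that drives many mitotic genes in mammals, measured 2.78, 2.41 and 1.31 CPM fed and 0.354, 0.132 and 0.0734 CPM starved, 11.1-fold lower (edgeR adjusted p = 0.0238). The other 4 were between 5.40-fold and 30.4-fold lower. Each of the 8 had all starved values below all fed ones, as did 15.5% of all tested genes.

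CDKN1C, the inhibitor p57 of cyclin-dependent kinases, measured 2.32, 1.39 and 1.85 CPM fed and 18.9, 15.9 and 16.8 CPM starved. It rose by 3.23 ± 0.30 on the log2 scale, 9.37-fold (edgeR adjusted p = 0.00292, at most 0.0377 over the alternatives). BTG1, an antiproliferative gene, rose 4.22-fold (edgeR adjusted p = 0.0234). Other tested inhibitors did not rise, and CDKN2A and Cdkn2d were too low to be tested. CDKN1A had a log2 fold change of -2.06, and both genes named CDKN1B had -1.05 and -0.03. None of these was called (edgeR adjusted p = 0.137, 0.132 and 0.971), though the former CDKN1B gene had all starved values below all fed ones. RB1 and both genes named E2F4 were not called either, though RB1 was higher in every starved library (edgeR adjusted p = 0.333). RBL1, a retinoblastoma-like protein, measured 4.29, 4.18 and 3.62 CPM fed and 9.99, 7.18 and 9.33 CPM starved. It was 2.19-fold higher and narrowly missed a call (edgeR adjusted p = 0.0558). Leaving out fed replicate 1 lowered this p to 0.0250, and leaving out starved replicate 3 raised it to 0.217. The tested RBL2 genes overlapped between the groups. Near the threshold in the other direction were cenpl, a gene named E2f3 and CENPI, with all starved values below all fed ones. Their log2 fold changes were -3.49, -2.46 and -3.21 (edgeR adjusted p = 0.0564, 0.0654 and 0.0659).

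Calls of CKAP2 and CDKN1C held in all 16 alternatives, whereas the list held 4 lower calls without fed replicate 2 and 1, 3 and 3 without starved replicates 1, 2 and 3. Its higher calls numbered 1 without fed replicate 2 and 1 without any 1 starved library. The adjusted p reached 0.0537 for TOP2A, 0.0550 for MKI67, 0.123 for Foxm1 and 0.0991 for BTG1.

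**Figure D4:**
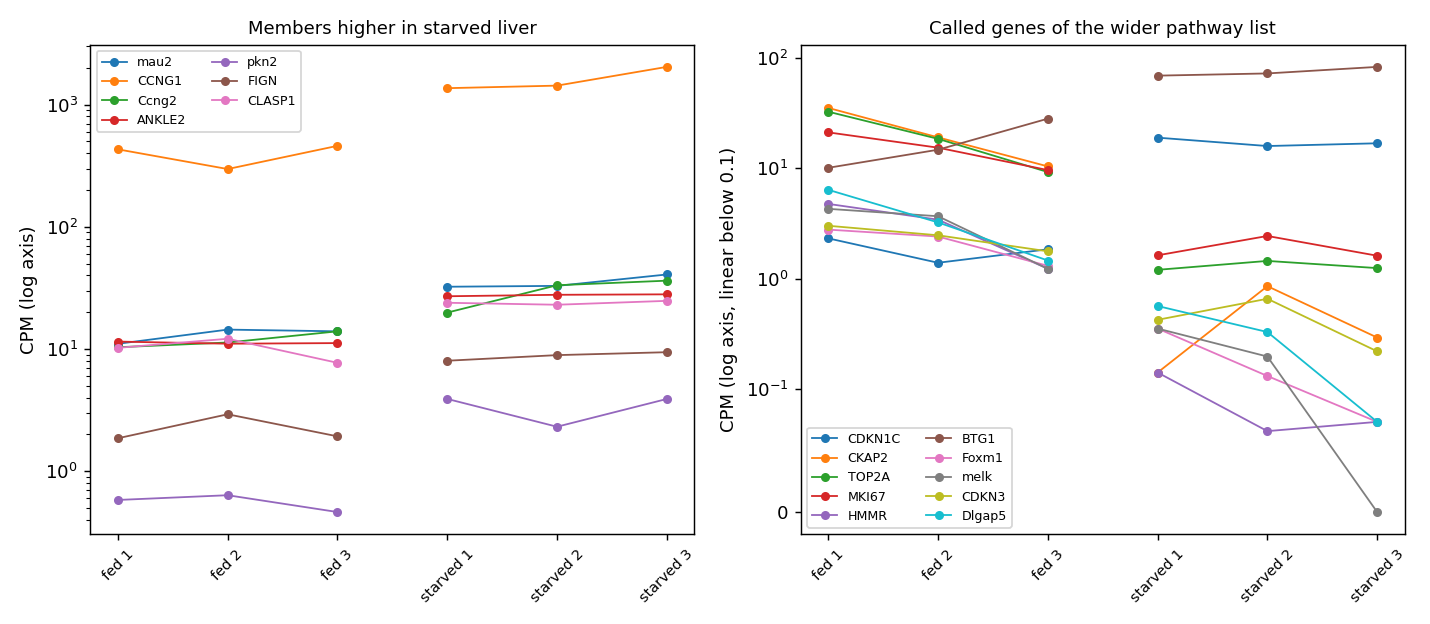
CPM on a log axis in each library, with lines joining the values of 1 gene within a group, for the 7 higher members (left) and the 10 called genes of the wider cell cycle list (right, linear below 0.1). All 7 members on the left are higher in every starved library, with CCNG1 the most abundant in CPM, and on the right CDKN1C and BTG1 rise while the other 8 fall.

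Markers of liver cell types were compared because the tissue was whole. Collagen genes among the stellate cell and fibroblast markers moved with the members: 4 of 6 tested genes of that list were lower, the summed level of the list was 276 to 418 CPM fed and 96.6 to 118 CPM starved, and acta2 had no matched gene. The lower ones were LUM, col1a2, which had a log2 fold change of -2.56 (edgeR adjusted p = 0.00545), and both COL1A1 genes. pdgfrb, a receptor of stellate and mural cells, had 4.41, 21.8 and 16.3 CPM fed and 34.1, 35.4 and 41.1 CPM starved, higher in all starved libraries, and was not called (edgeR adjusted p = 0.148), and the summed level rests on the collagens. The summed level had the same order as the members among fed libraries, highest in fed replicate 1 and lowest in fed replicate 3. Its part in the members' change was not tested.

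Hepatocyte markers summed to 141815 to 290856 CPM over the 6 libraries, with 1 of 17 tested lower (AHSG). Red cell markers ranged from 239 to 1357 CPM, with 1 of 5 higher (RHAG). The other tested red cell markers went the other way and were not called. Log2 fold changes were -2.19 for slc4a1, -1.06 for hba1, -0.79 for hbb1 and -0.62 for alas2 (edgeR adjusted p 0.0885 to 0.601). Bile duct markers summed to 780 to 1274 CPM fed and 435 to 730 CPM starved, lower in all starved libraries, with 0 of 4 tested called. That sum rests mainly on a KRT19 gene, at -0.66 in log2 fold change, and Anxa4 stood at -0.95. Both tested sox9-b genes went the other way, at 0.15 and 0.50. Endothelial markers summed to 101 to 130 CPM fed and 151 to 181 CPM starved, with 0 of 8 tested called. EGFL7 and a PECAM1 gene stood at -0.23 and -0.001 in log2 fold change, and the other tested endothelial ones were above 0. Lymphocyte markers summed to 2.09 to 4.23 CPM fed and 4.82 to 6.46 CPM starved, with 0 calls, but only 2 of 8 matched genes were tested. Both sums were higher in all starved libraries. Granulocyte and macrophage markers overlapped between the groups, at 20.9 to 39.9 CPM, with 0 calls. The part of these shifts in the members' change was not tested. Pancreatic acinar markers ranged from 4.87 to 261 CPM with 0 calls, highest in starved replicate 3.

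In the authors' deposited table, all 35 lower members and all 7 higher members had a q-value under 0.05 and the same direction. That table was made from the same libraries and is no independent support.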

How the data were processed

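RNA of whole liver was extracted with TRIzol and made into TruSeq Stranded mRNA libraries, sequenced with paired reads on Illumina equipment, per the labels' protocols. The submitters' processing notes name HISAT2, HTSeq, Cufflinks and Trimmomatic with no version or role. The build used is not given in the sources here. Counts, as the authors deposited them, are unnormalized whole numbers. FPKM values, as the authors deposited them, are scaled by library and gene length. The authors' deposited comparison lists for each gene a ratio of starved to fed (a fold change) and a q-value. The deposited mapping summary gives counts of spliced and other reads, per the file headers. The test behind the deposited comparison is not given. No source used here says if counting was by strand, so overlapping and antisense genes may share reads, as may copies: 111 members share a symbol with another member, over 47 symbols. Symbols are used as deposited.

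The main test was that of edgeR 4.0.16 under R 4.3.3 (low-count filter filterByExpr, TMM, robust quasi-likelihood F test, starved minus fed, Benjamini-Hochberg adjustment over 13338 genes, calls at an adjusted p under 0.05). The standard error was taken from the fold change and F. The fit was first checked on simulated data with a common dispersion and no deviant library. Changes were set only in genes above a count floor, so the check says little about scarce transcripts. Groups within the members follow symbol prefixes. Named genes are the called members, the 3 smallest p and 2 highest FPKM of each group, a fixed set of mitotic genes, and the called genes of the wider list; others, such as nuf2, CCND2 and the complexes, were chosen after their values were seen. Members and lists were chosen with earlier results of these data known. Alternatives were upper-quartile scaling, the size factors and, separately, the Wald test of DESeq2 1.42.0, limma-voom (limma 3.58.1), no filter, a CPM of at least 1 in 3 libraries, a non-robust fit, limma on log2(FPKM + 1) and log2(FPKM + 0.1), quality weights and each library left out; quality weights, and the alternatives for the wider list and for the groups, were added after seeing the data. No pair of libraries was as close as repeat counts would be: the chi-square per degree of freedom lay between 36.2 and 162 within groups. Promoter and protein sequences were not used here.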

Additional observations from a re-analysis of the deposited data

How the results depend on the processing

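No paired analysis was possible because the labels number no replicates: the titles give each library a code, and only fed replicate 3 and starved replicate 3 share its letter, which is 1 possible pair and is not explained. Upper-quartile scaling, scaling by DESeq2 size factors and a non-robust fit left the member counts at 35 lower and 7 higher. The lower count was 23 with limma-voom (8.55% of members, 2.48% of all genes), and 3 to 40 with 1 library left out. The higher count was 14 in the Wald test of DESeq2 (5.26% of all genes), 3 on log2(FPKM + 0.1), 17 under quality weights (7.13% of all genes), and 0 to 14 with 1 library left out. The median log2 fold change of the tested members was -0.0338 on log2(FPKM + 1), -0.0570 on log2(FPKM + 0.1) and -0.0481 under quality weights, and lay between -0.21 and -0.0455 with 1 library left out. Lower genes of the wider list numbered 14 in the Wald test of DESeq2 and 13 under quality weights, where 7.145% and 8.07% of all genes were lower. With 1 library left out, that list had 1 to 12 lower and 1 to 3 higher genes. Lower calls then ranged from 0 to 9 in the centromere group, 1 to 7 in checkpoint, 0 to 6 in condensin and cohesin, 0 to 9 in cyclins and kinases, 1 to 3 in cytokinesis, 1 to 7 in spindle and centrosome and 0 to 1 among the others. The cause was not tested. Of the named called genes, 0 changed direction in any alternative. Most lower members had few counts in starved liver, which limits how well their fold is known.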
